A study of Homo sapiens with 4 samples.

Results

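The genes described here encode 40 nuclear subunits of the mitochondrial respiratory chain beyond complex I. They were chosen by symbol, with the older ATP5 names for the ATP synthase, from a table of 17064 entries, and all 40 were in the table and had a mean of at least 5 FPKM (read fragments scaled by transcript length and by library size) over the libraries. The set holds 4 subunits of complex II, 9 of complex III, cytochrome c, 11 of complex IV and 15 of complex V. The cells were KYSE-150, a line of human esophageal squamous cell carcinoma. Libraries came from cells labelled as carrying a stable short hairpin RNA against the RNA 5-methylcytosine methyltransferase NSUN6 and from control cells with normal NSUN6. In both, the lysate gave an input library and, after cycloheximide and a sucrose cushion, a library of polyribosome-bound RNA. The 4 groups are therefore knockdown-labelled polyribosome, knockdown-labelled input, control polyribosome and control input, each with 1 library, so that no difference has a replicate check and none was tested.

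The knockdown label has limits. NSUN6 itself was at 0.38 FPKM in knockdown-labelled polyribosome RNA and 3.83 FPKM in knockdown-labelled input, against 10.13 and 8.85 FPKM in control polyribosome RNA and input. The deposited table closes with a further set of column names, which gives the knockdown-labelled columns another cell name, K30, and a hairpin against Mettl1, and puts the input and polyribosome columns in the opposite order to the header. METTL1 was at 58.1% of control in polyribosome RNA and 45.9% in input. The squamous keratin KRT5 was at 0.70 and 0.45 FPKM in knockdown-labelled polyribosome and input RNA, against 1162.19 and 905.66 FPKM in the control libraries, and KRT19, of simple epithelia, was at 1972.57 and 1487.69 FPKM against 1.02 and 0.07 FPKM. The 8 squamous markers listed summed to 617.75 and 664.34 FPKM in knockdown-labelled polyribosome and input RNA, against 2032.24 and 1592.91 FPKM in control, and the 5 simple epithelial markers to 6743.88 and 5418.9 FPKM against 4297.15 and 3206.91 FPKM. The squamous list did not move as a whole, and the simple epithelial list did so only in input by the header. KRT5 carried most of the squamous difference, while the squamous marker SOX2 was higher, at 8.28 and 39.54 FPKM against 0.27 and 0.31 FPKM. Of 7 squamous markers past the filter 2 were 2-fold higher and 2 lower in input, and 1 was higher and 3 lower in polyribosome RNA. KRT19 carried most of the simple epithelial difference. In input all 5 simple epithelial markers were above control, 3 of them at least 2-fold. In polyribosome RNA 1 was 2-fold higher, and EPCAM (-1.42) and CDH1 (-1.17) were 2-fold lower. The part of these markers in the differences below was not tested. Of the 6 immune markers only CD68 passed the filter, at 6.38 and 5.90 FPKM against 69.33 and 71.23 FPKM, and no marker of fibroblasts, endothelium or muscle did, with sums of at most 2.99 FPKM. The 4 muscle markers were at 0 in both knockdown-labelled libraries. A hairpin effect and a difference between cell lines cannot be told apart in this design, and in bulk RNA neither can fewer cells of a type and less RNA per cell. The header was followed, and values with the knockdown-labelled columns exchanged are given for the main results.

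The respiratory chain passes electrons from succinate, through complex II, and from other donors to ubiquinone, then through complex III to cytochrome c, and from there through complex IV to oxygen. Complexes III and IV pump protons across the inner mitochondrial membrane, and complex V, the ATP synthase, lets them flow back to make ATP. Complexes III, IV and V combine nuclear subunits, translated in the cytosol and imported, with subunits encoded in mitochondrial DNA, whereas complex II is wholly nuclear. The mitochondrially encoded subunits were not analysed here.

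The messages that were lowest and highest on polyribosomes of knockdown-labelled cells differed in their codons, and 6 coding starts are shown for that reason. Each is the first 120 bases, or 40 codons, of the coding sequence in GENCODE 29 (GRCh38), and capitals mark the last base of each codon where it is G or C. CYCS, SDHD and ATP5F1 were the 3 lowest on knockdown-labelled polyribosomes relative to input. UQCR11, COX8A and ATP5I were the highest of complexes III, IV and V. Both statements follow the header: with the columns exchanged CYCS, SDHD and ATP5F1 were the highest (2.21, 1.99 and 1.72) and UQCR11 the lowest (-1.26).
CYCS: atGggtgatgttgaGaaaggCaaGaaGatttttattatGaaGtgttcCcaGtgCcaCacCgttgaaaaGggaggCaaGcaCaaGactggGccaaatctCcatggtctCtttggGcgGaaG
SDHD: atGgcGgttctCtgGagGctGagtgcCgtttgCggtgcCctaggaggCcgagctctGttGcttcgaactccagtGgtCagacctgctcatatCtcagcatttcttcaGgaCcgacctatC
ATP5F1: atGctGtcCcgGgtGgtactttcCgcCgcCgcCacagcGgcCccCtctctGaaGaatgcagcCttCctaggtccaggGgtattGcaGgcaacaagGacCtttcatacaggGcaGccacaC
UQCR11: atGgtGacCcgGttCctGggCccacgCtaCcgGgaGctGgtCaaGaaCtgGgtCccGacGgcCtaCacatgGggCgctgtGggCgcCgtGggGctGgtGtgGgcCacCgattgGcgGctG
COX8A: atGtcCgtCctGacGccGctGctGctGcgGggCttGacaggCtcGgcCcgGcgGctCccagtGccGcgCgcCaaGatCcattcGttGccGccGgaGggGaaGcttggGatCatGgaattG
ATP5I: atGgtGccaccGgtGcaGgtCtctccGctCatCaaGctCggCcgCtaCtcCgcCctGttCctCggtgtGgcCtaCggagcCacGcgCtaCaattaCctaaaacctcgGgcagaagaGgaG
Codons ending in G or C numbered 23 of 40 in CYCS, 18 in SDHD and 24 in ATP5F1, against 36 in UQCR11, 35 in COX8A and 30 in ATP5I. Over the whole coding sequence their share was 54.3%, 49.7% and 45.7% in CYCS, SDHD and ATP5F1, and 82.1%, 85.5% and 63.8% in UQCR11, COX8A and ATP5I.

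Levels of the 40 messages spanned 11.32 FPKM (CYCS) to 1045.03 FPKM (COX6B1) in knockdown-labelled polyribosome RNA and 21.20 FPKM (SDHA) to 697.03 FPKM (COX6B1) in knockdown-labelled input. In control cells they spanned 24.04 FPKM (UQCRB) to 719.82 FPKM (COX6A1) in polyribosome RNA and 16.64 FPKM (UQCRB) to 631.17 FPKM (COX8A) in input. Together they made up 1.74% of all FPKM in knockdown-labelled polyribosome RNA and 1.82% in knockdown-labelled input, against 2.01% in control polyribosome RNA and 1.67% in control input. The order of the 40 levels was nearly the same in the control fractions (Spearman rho 0.985), less so between knockdown-labelled input and control input (rho 0.912), and knockdown-labelled polyribosome RNA stood furthest from the rest, with rho of 0.852 to either input and 0.809 to control polyribosome RNA. These are descriptions across 40 genes that share their libraries. Per length, as FPKM gives it, complex IV messages were the most abundant of the 4 complexes and complex II messages the least: their medians were 438.62 and 28.75 FPKM in knockdown-labelled polyribosome RNA and 385.73 and 85.67 FPKM in control input.

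**Figure D1:**
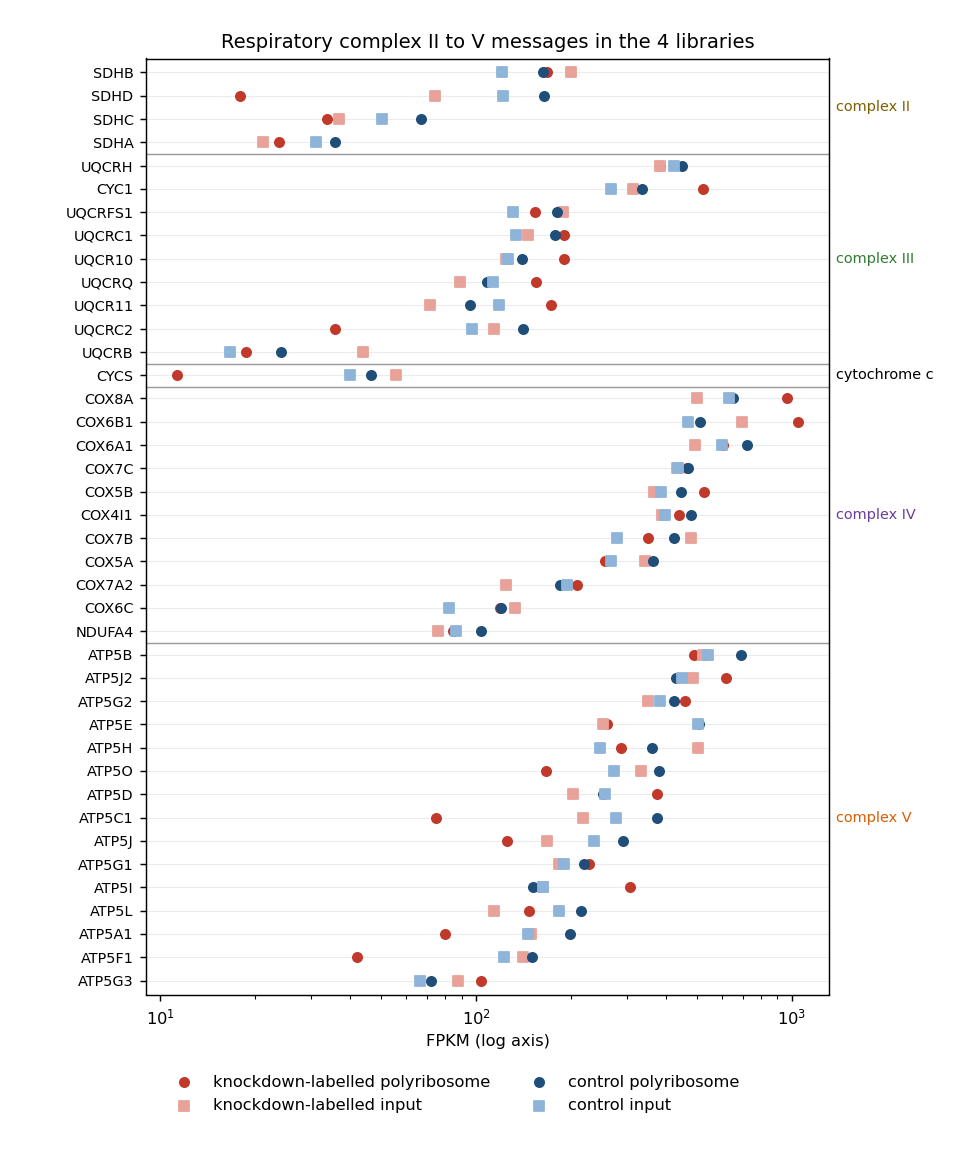
FPKM of the 40 messages (log axis) in the 4 libraries, 1 point per library, grouped by complex and sorted by mean level within each. In knockdown-labelled polyribosome RNA, SDHD (17.93 FPKM), UQCRC2 (35.85), CYCS (11.32), ATP5C1 (74.59) and ATP5F1 (42.13) lie left of their other 3 libraries.

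Between knockdown-labelled and control cells, input RNA of the 40 genes differed little in its middle and polyribosome RNA differed more. The median difference of log2(FPKM + 1), knockdown-labelled minus control, was -0.03 in input, where the median of all 7379 genes past the filter was 0.01. In polyribosome RNA it was -0.23, where that of all genes was -0.28. In input 2 of 40 were at least 2-fold higher, UQCRB and ATP5H, and 0 of 40 were at least 2-fold lower, whereas 13.2% of all genes were 2-fold higher and 14.4% were 2-fold lower. In polyribosome RNA 2 of 40 were at least 2-fold higher, COX6B1 and ATP5I, and 8 of 40 were at least 2-fold lower, against 16.7% and 32.9% of all genes. Those 8 were SDHD, UQCRC2, CYCS, ATP5A1, ATP5C1, ATP5F1, ATP5J and ATP5O. By complex these were 1 of 4 in complex II, 1 of 9 in complex III, 0 of 11 in complex IV and 5 of 15 in complex V, besides cytochrome c. With the knockdown-labelled columns exchanged, 0 of 40 were 2-fold higher and 2 of 40 lower in polyribosome RNA, SDHD and ATP5E, and 1 of 40 was higher and 5 of 40 lower in input, so that the low values of SDHD, UQCRC2, CYCS, ATP5C1 and ATP5F1 then stand in input. Shares of all genes past 2-fold were not computed for exchanged columns. The exchanged medians of all genes were -0.008 in polyribosome RNA and -0.23 in input, against -0.28 and 0.15 for the 40.

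**Figure D2:**
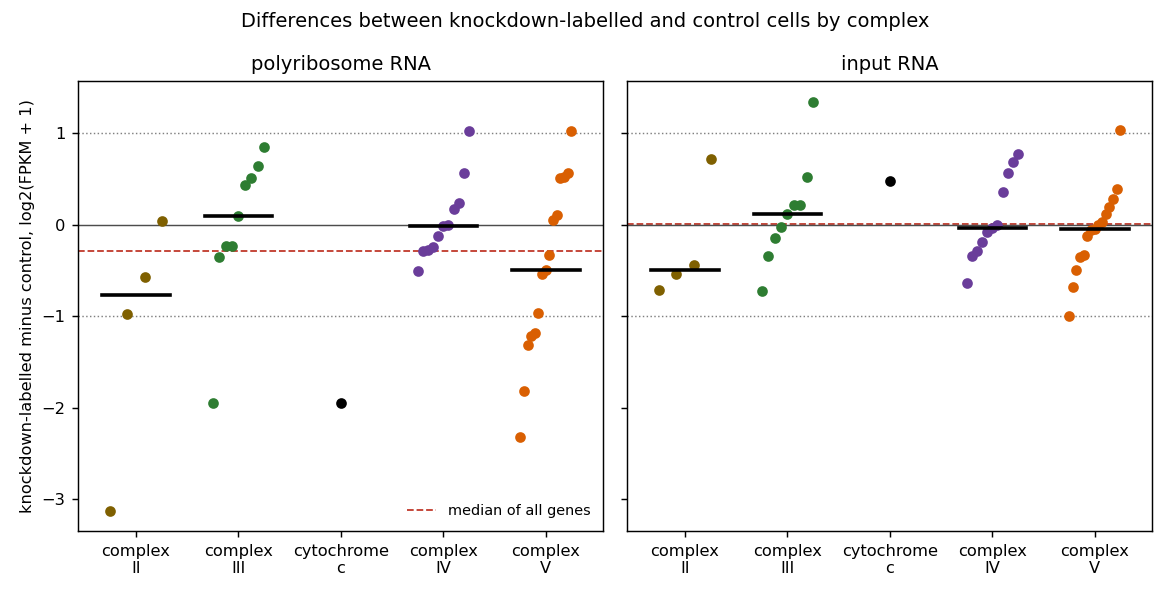
Difference of log2(FPKM + 1), knockdown-labelled minus control, for each message by complex, in polyribosome RNA (left) and input RNA (right), with 1 point per gene, bars at each complex's median, dotted lines at 2-fold and a dashed line at the median of all genes. In polyribosome RNA the points of complex V run between -2.31 and 1.02 around a median of -0.50, while those of complex IV run between -0.50 and 1.03 around a median of -0.01.

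Within control cells, nearly all of these messages were slightly higher in polyribosome RNA than in input. Polyribosome minus input, on the log2(FPKM + 1) scale, was above 0 for 34 of 40 with a median of 0.26, against 0.03 for all genes. None of the 40 was 2-fold apart in either direction, where 0% of all genes were 2-fold higher and 0.759% were 2-fold lower on control polyribosomes. COX7B was the highest of the 40 at 0.60, in percentile 99.6 of all genes, with ATP5H in percentile 99.2, COX6C in percentile 99.1 and UQCRC2 in percentile 98.9. UQCR11 was the lowest at -0.31. In knockdown-labelled cells the same difference spread from -2.21 (CYCS) to 1.26 (UQCR11), with a median of 0.13, against -0.02 for all genes. There 1 of 40 was 2-fold higher on polyribosomes, UQCR11, and 7 of 40 were 2-fold lower, SDHD, UQCRC2, UQCRB, CYCS, ATP5C1, ATP5F1 and ATP5O, against 8.62% and 28.8% of all genes. With the knockdown-labelled columns exchanged, every sign of this knockdown-labelled difference turns round by construction, and the median becomes -0.13.

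The difference between both kinds of cells in polyribosome minus input was at least 2-fold higher in knockdown-labelled cells for 2 of 40, UQCR11 and ATP5I, and at least 2-fold lower for 10 of 40. Of all genes 12.0% were 2-fold higher and 30.1% were 2-fold lower. The 10 were SDHD, UQCRC2, UQCRB, CYCS, COX7B, ATP5A1, ATP5C1, ATP5F1, ATP5H and ATP5O. Of the 34 messages above 0 in control cells, 18 were below 0 in knockdown-labelled cells, and the 6 messages below 0 in control cells were all above 0 in knockdown-labelled cells. Of all genes above 0 in control cells, 2165 of 4010 were below 0 in knockdown-labelled cells, a share close to that of the 40. Of all genes below 0 in control cells, 1777 of 3336 were above 0 in knockdown-labelled cells. Across the 40, the knockdown-labelled and control values ran in opposite order (rho -0.743), as they did across 37 complex I subunits (rho -0.601) and more weakly across all genes (rho -0.119). The points of such a relation share both libraries of each kind of cell, and its sign turns round when the knockdown-labelled columns are exchanged.

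**Figure D3:**
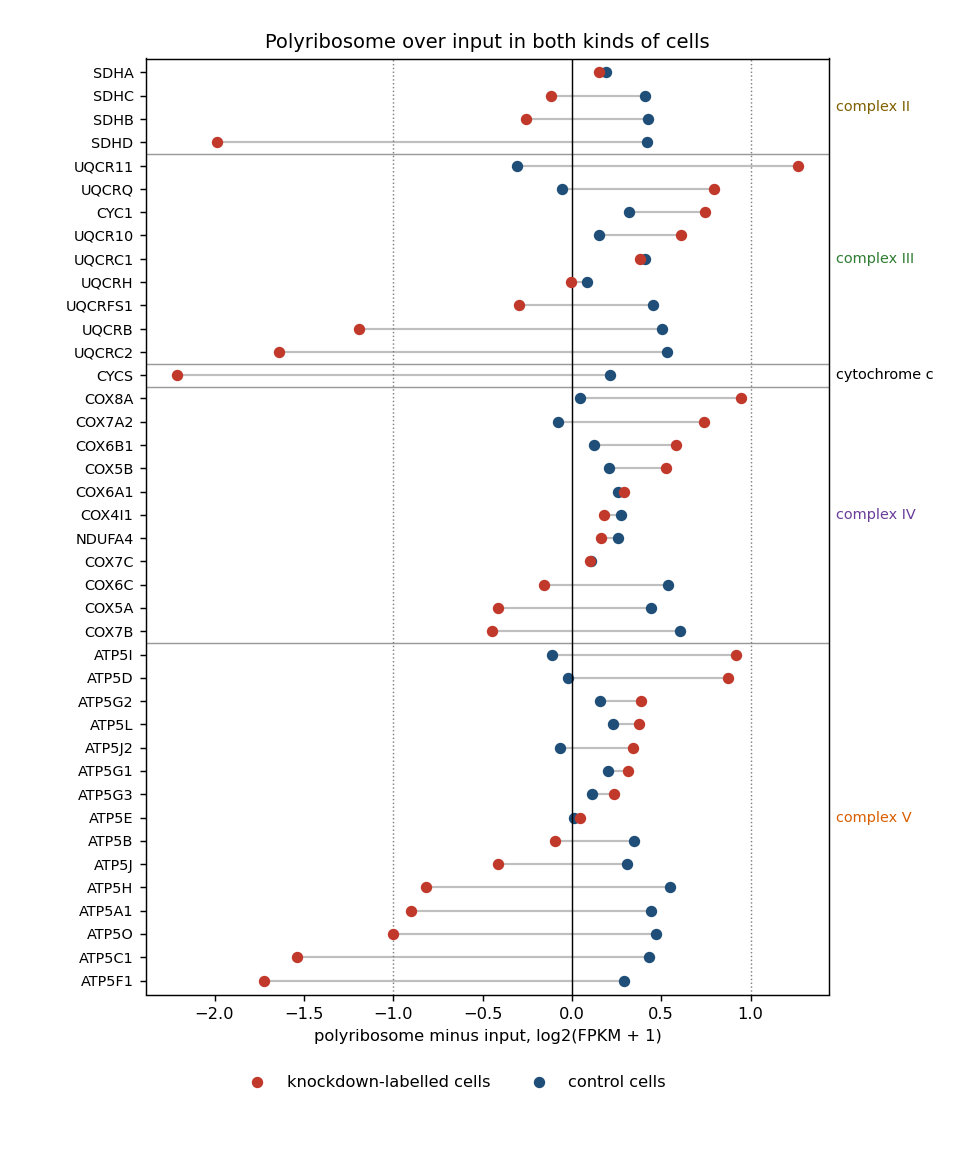
Polyribosome minus input on the log2(FPKM + 1) scale for each message in knockdown-labelled cells (red) and control cells (blue), joined by a line, grouped by complex, with dotted lines at 2-fold. Control points lie between -0.31 and 0.60, and knockdown-labelled points between -2.21 and 1.26.

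In complex II every message was lower on polyribosomes, relative to input, in knockdown-labelled than in control cells by the header. The changes were -0.04 for SDHA, -0.53 for SDHC, -0.68 for SDHB and -2.41 for SDHD. Of all 7379 genes 4015 were below 0 in this change, with a median of -0.12, and SDHA lay above that median. With the columns exchanged the change of SDHD was 1.57 and those of the others kept their sign. All 11 complex IV messages were then below 0, where the median of all genes was -0.05. SDHD, which anchors the enzyme in the membrane together with SDHC, was at 17.93 FPKM in knockdown-labelled polyribosome RNA and 74.10 in knockdown-labelled input, against 164.20 and 122.22 FPKM in control polyribosome RNA and input. Its polyribosome RNA was thus 10.9% of control, a difference of -3.13 and percentile 2.8 of all genes, and its input RNA 60.6% of control. SDHD was lower than control in both fractions in either column order, with exchanged differences of -1.14 in polyribosome RNA and -2.70 in input. SDHC was at 33.79 and 36.79 FPKM in knockdown-labelled polyribosome and input RNA, against 67.15 and 50.39 FPKM in control, just inside 2-fold in polyribosome RNA at -0.97. SDHA, the flavoprotein that oxidises succinate, was at 23.70 and 21.20 FPKM against 35.66 and 31.08 FPKM. SDHB, the iron-sulfur subunit, differed from its partners: its input RNA was higher, at 200.40 against 120.94 FPKM, and its polyribosome RNA nearly equal, at 167.52 against 162.85 FPKM. The ratio of SDHB to SDHD was 9.34 in knockdown-labelled polyribosome RNA and 2.70 in knockdown-labelled input, against 0.992 and 0.990 in control polyribosome RNA and input.

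In complex III the core proteins UQCRC1 and UQCRC2, which form the matrix-side body of the complex, parted. UQCRC2 was at 35.85 FPKM in knockdown-labelled polyribosome RNA and 113.81 in knockdown-labelled input, against 141.11 and 97.39 FPKM in control. Its polyribosome RNA was 25.4% of control while its input RNA was 116.9%. UQCRC1 was at 190.38 and 146.07 FPKM against 178.15 and 134.03 FPKM, so that UQCRC1 over UQCRC2 was 5.31 in knockdown-labelled polyribosome RNA and between 1.26 and 1.38 in the other 3 libraries. In the other column order the low value stands in input: UQCRC2 then differed from control by -0.31 in polyribosome RNA and -1.42 in input, and UQCRC1 over UQCRC2 was 1.28 in knockdown-labelled and 1.26 in control polyribosome RNA. UQCRB, a small subunit near the ubiquinone site, was at 18.64 and 43.92 FPKM in knockdown-labelled polyribosome and input RNA, against 24.04 and 16.64 FPKM in control. Its input difference of 1.35 was the highest of the 40, and with the columns exchanged it was 0.15.

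The catalytic electron carriers of complex III did not move together. Cytochrome c1, encoded by CYC1, was higher in knockdown-labelled than control polyribosome RNA, at 525.18 against 335.01 FPKM, and in input, at 313.34 against 268.52 FPKM, though its polyribosome difference was -0.10 with the columns exchanged. UQCRFS1, the Rieske iron-sulfur protein, was at 153.65 FPKM in knockdown-labelled polyribosome RNA and 189.05 in input, against 180.53 and 131.26 FPKM in control, with an exchanged polyribosome difference of 0.07. The hinge protein UQCRH was close to control in both fractions, with differences of -0.23 in polyribosome RNA and -0.14 in input. It has a near-identical copy, UQCRHL, at 49.25 and 18.74 FPKM against 29.41 and 28.84 FPKM, so both are uncertain. The 3 subunits with the shortest coding sequences were higher than control in polyribosome RNA by the header. UQCR11 was at 172.52 FPKM in knockdown-labelled polyribosome RNA and 71.25 in input, against 95.49 and 118.33 FPKM in control, which is 180.7% of control in polyribosome RNA and 60.2% in input. UQCR10 and UQCRQ were 0.44 and 0.51 above control in polyribosome RNA and -0.02 and -0.34 from it in input. With the columns exchanged the polyribosome differences were -0.42 for UQCR11, -0.17 for UQCR10 and -0.29 for UQCRQ.

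CYCS encodes cytochrome c, the soluble carrier between complexes III and IV, which also triggers caspases when released from mitochondria. It was at 11.32 FPKM in knockdown-labelled polyribosome RNA, its lowest library, and at 55.94 FPKM in knockdown-labelled input, its highest, against 46.51 and 39.91 FPKM in control polyribosome RNA and input. Polyribosome minus input was -2.21 in knockdown-labelled cells and 0.22 in control cells, and the change of -2.42 was the largest of the 40 in size. With the columns exchanged the change was 1.99, and the polyribosome difference of -1.95 became 0.26. CYCS has many processed pseudogenes, and how the counting treated them is not given in the sources used here.

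The 11 nuclear complex IV messages surround a mitochondrially encoded catalytic core, and in polyribosome RNA none was 2-fold lower than control. COX6B1, which lies on the intermembrane side between the monomers of the dimer, was at 1045.03 FPKM in knockdown-labelled polyribosome RNA and 697.03 in input, against 512.68 and 469.69 FPKM in control. It was higher in both fractions in either column order, at 203.8% of control in polyribosome RNA and 148.4% in input by the header. COX8A, a small subunit within the membrane, was at 963.65 and 499.94 FPKM against 650.29 and 631.17 FPKM, higher in polyribosome RNA and lower in input, and both directions turned with the columns exchanged (-0.38 and 0.61). COX7B and COX5A had the opposite pattern, lower in polyribosome RNA and higher in input; exchanged, COX7B was 0.17 above control in polyribosome RNA and COX5A -0.06 from it in input. COX7B was at 350.84 and 478.47 FPKM against 425.27 and 279.44 FPKM, and its change in polyribosome minus input, -1.05, was the only 2-fold change of complex IV by the header and -0.16 with the columns exchanged. COX5A was at 256.27 and 342.16 FPKM against 363.69 and 267.05 FPKM, while COX5B, the zinc-binding subunit, was at 526.73 and 365.16 FPKM against 445.12 and 385.73 FPKM. COX5B over COX5A was therefore 2.06 in knockdown-labelled polyribosome RNA and 1.07 in knockdown-labelled input, against 1.22 and 1.44 in control. Both directions turn with the columns exchanged, since the value of 2.06 then belongs to input and that of 1.07 to polyribosome RNA, and COX5B was -0.28 from control in polyribosome RNA.

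Several complex IV messages hardly differed by the header. COX7C was at 466.74 FPKM in knockdown-labelled polyribosome RNA and 434.24 in input, against 469.73 and 435.52 FPKM in control, and its 4 differences lay between -0.01 and 0.11. COX4I1, the widely expressed isoform of a regulatory subunit, COX6A1, and NDUFA4, once counted with complex I, were within 0.29 of control in both fractions. With the columns exchanged, their polyribosome differences were -0.30 for COX4I1, -0.54 for COX6A1 and -0.45 for NDUFA4. COX6C was level in polyribosome RNA, at 119.35 against 119.88 FPKM, and higher in input, at 132.99 against 82.25 FPKM. COX7A2 had the reverse, 208.81 against 184.72 FPKM in polyribosome RNA and 124.87 against 194.62 FPKM in input, and exchanged differences of -0.56 and 0.10. Of the paralogs of complex III to V subunits only UQCRHL and COX7A2L passed the filter, and the muscle form COX7A1 was at 0 in both knockdown-labelled libraries and in control input.

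Complex V held the widest spread in polyribosome RNA, from -2.31 to 1.02, and its parts differed. In the catalytic head ATP5B, the beta subunit that makes ATP, was at 489.49 FPKM in knockdown-labelled polyribosome RNA and 523.56 in input, against 690.67 and 541.75 FPKM in control. Its alpha partner ATP5A1 was at 79.68 and 149.48 FPKM against 198.60 and 146.09 FPKM, a difference of -1.31 in polyribosome RNA and 0.03 in input. ATP5C1, the gamma subunit that turns within the head, was at 74.59 and 218.45 FPKM against 375.11 and 277.92 FPKM, or 19.9% of control in polyribosome RNA and 78.6% in input. ATP5B over ATP5C1 was 6.56 in knockdown-labelled polyribosome RNA, against 1.84 in control polyribosome RNA, and 2.40 against 1.95 in input. In the other order 6.56 belongs to input and 2.40 to polyribosome RNA, and ATP5A1 differed by -0.41 in polyribosome RNA and -0.87 in input. The other central stalk subunits went other ways. ATP5D, delta, was at 374.14 and 203.41 FPKM against 252.37 and 256.19 FPKM, higher in polyribosome RNA and lower in input, with exchanged differences of -0.31 and 0.54. ATP5E, epsilon, was lower in both fractions and just inside 2-fold, at 260.89 and 252.43 FPKM against 509.38 and 504.28 FPKM, with polyribosome minus input near 0 in both kinds of cells. With GC content and length of the reference transcript removed, the change in polyribosome minus input was -1.05 for ATP5D (0.90 before) and 1.81 for ATP5E (0.03 before). The reference transcript of ATP5E has 3665 bases for a coding sequence of 153. With GC content and length of the coding sequence removed instead, the changes were -0.52 for ATP5D and -0.47 for ATP5E.

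The peripheral stalk, which holds the head still, had 4 members, and all were lower than control in polyribosome RNA, 3 of them at least 2-fold. ATP5F1, subunit b, was at 42.13 FPKM in knockdown-labelled polyribosome RNA and 141.14 in input, against 150.54 and 122.94 FPKM in control. ATP5O, which joins stalk and head, was at 166.48 and 334.20 FPKM against 379.99 and 273.77 FPKM. ATP5J, coupling factor F6, was lower in both fractions, at 125.60 and 167.62 FPKM against 292.53 and 235.72 FPKM. ATP5H, subunit d, was only slightly lower in polyribosome RNA, at 287.16 against 361.58 FPKM, but its input RNA was 205.1% of control, at 506.59 against 247.01 FPKM. With the columns exchanged, the peripheral stalk differences in polyribosome RNA were -0.09 for ATP5F1, -0.18 for ATP5O, -0.80 for ATP5J and 0.49 for ATP5H, and those in input were -1.52, -0.71, -0.90 and 0.22.

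In the membrane part of complex V only ATP5L was lower than control in polyribosome RNA by the header. ATP5I, subunit e at the dimer interface, was at 308.18 FPKM in knockdown-labelled polyribosome RNA and 162.74 in input, against 151.16 and 163.15 FPKM in control, which is 203.9% of control in polyribosome RNA with input at 99.7%. In the other column order it differed by 0.11 in polyribosome RNA and 0.91 in input. ATP5J2, subunit f, was at 619.16 and 488.43 FPKM against 431.36 and 450.89 FPKM. ATP5L, subunit g, was lower in both, at 147.46 and 113.63 FPKM against 215.02 and 182.89 FPKM. ATP5G1, ATP5G2 and ATP5G3 encode the same mature c subunit of the rotor ring, and their summed level was 790.16 FPKM in knockdown-labelled polyribosome RNA and 621.85 in input, against 716.49 and 638.54 FPKM in control. ATP5G2 gave 58.1% and 56.5% of that sum in knockdown-labelled polyribosome RNA and input, against 59.4% and 59.7% in control. The share of ATP5G3 was 13.1% and 14.1%, against 10.1% and 10.4%. With the columns exchanged, polyribosome differences were -0.91 for ATP5L, -0.26 for ATP5G1, -0.28 for ATP5G2, 0.18 for ATP5J2 and 0.28 for ATP5G3.

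The direction of the 40 messages ran with the base composition of their codons, a relation looked at after the values were seen. The share of codons ending in G or C was higher where polyribosome minus input was higher in knockdown-labelled cells (Spearman rho 0.789 across 40 genes) and ran the opposite way, over a far smaller range, in control cells (rho -0.594). Across the 7338 genes past the filter with a reference transcript these were 0.760 and -0.018, and across 37 complex I subunits 0.864 and -0.398. The knockdown-labelled relation was not particular to the last base of codons. With GC content of the coding sequence and of the whole transcript, rho was 0.733 and 0.642 across the 40. It was 0.771 and 0.830 across all genes, and 0.918 and 0.888 across complex I subunits. The knockdown-labelled sign turns round with the columns exchanged. Split at the median share of 56.2%, the 20 messages below it held all 8 that were 2-fold lower in polyribosome RNA and all 10 whose polyribosome minus input was 2-fold lower. The 20 at or above it held 0 of either and both messages that were 2-fold higher in polyribosome RNA. How many of all genes were 2-fold apart on each side of this cut was not computed. By the header, median polyribosome differences were -0.50 below the cut and 0.18 at or above it. With the columns exchanged they were -0.15 and -0.28. The 40 had a lower share than all genes (median 56.2% against 64.2%), and complex V the lowest of the complexes with several subunits (median 50.9%). They also had shorter coding sequences, with a median of 397.5 bases against 1185.

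**Figure D4:**
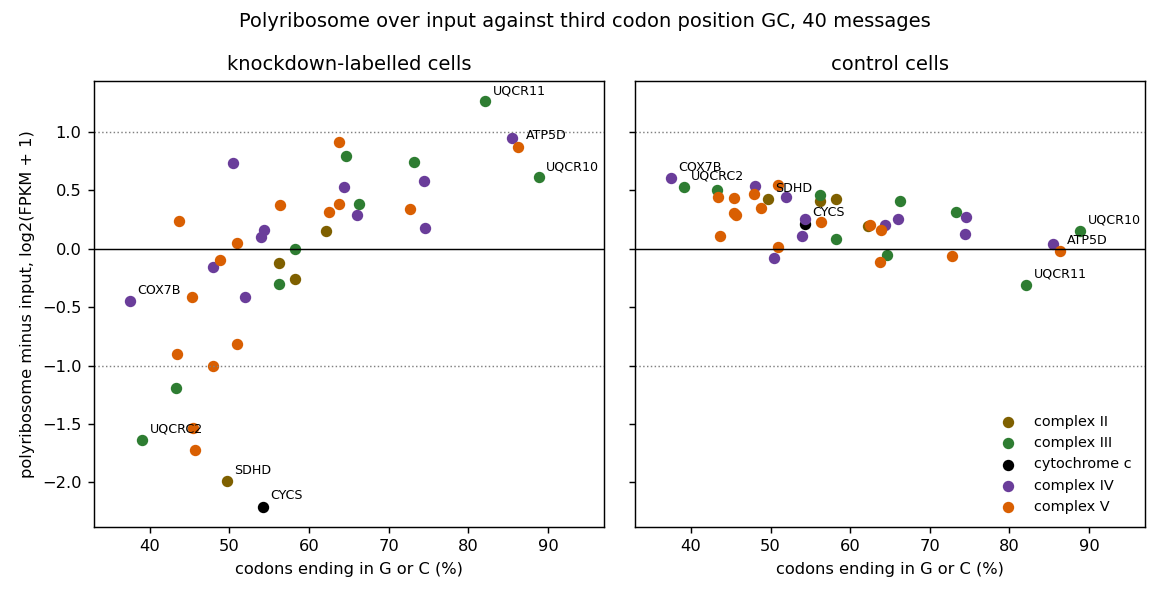
Polyribosome minus input on the log2(FPKM + 1) scale against the share of codons ending in G or C, for the 40 messages in knockdown-labelled cells (left) and control cells (right), coloured by complex, with dotted lines at 2-fold. Knockdown-labelled points run upward from UQCRC2 at -1.64 to UQCR11 at 1.26, and control points run slightly downward from COX7B at 0.60 to UQCR11 at -0.31.

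Since base composition moves with the result in all genes, each value was also computed with a quadratic trend on coding GC content and coding length removed. The median change in polyribosome minus input of the 40 was then -0.51, with 0 of 40 at least 2-fold higher and 7 of 40 lower. The trend step keeps the mean of all genes, not their median. Shares of all genes past 2-fold were not computed after it, so these counts have no background. With GC content and length of the whole transcript removed, the median change was -0.51 for the 40 and -0.40 for all genes. SDHD, at -2.81, and CYCS, at -2.12, were the lowest, and UQCRC2 (-1.06) and ATP5F1 (-1.23) were also past 2-fold, as were COX5A (-1.26), COX6A1 (-1.09) and COX6C (-1.01). ATP5C1 (-0.75), ATP5A1 (-0.41), ATP5O (-0.92), ATP5H (-0.72), UQCRB (-0.88) and COX7B (-0.99) were inside it. UQCR11 turned to -0.20 and ATP5I to -0.077. With GC content and length of the whole reference transcript removed in place of the coding sequence's, UQCR11 was still 2-fold higher at 1.21, SDHD was at -1.20 and CYCS at -1.05, while UQCRB turned to 0.14, ATP5I to -0.39 and ATP5D to -1.05. The part of base composition in the differences was not tested beyond this.

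Promoters were searched, on both strands, for letters bound by factors known to act on respiratory genes. Promoter windows of 250 bases before to 50 after the start were found in RefSeq (GRCh38.p14) for 32 of the 40 genes. The comparison is with all 35116 windows of the reference. These were not limited to genes past the filter, as the 40 are, so the shares are not like for like. The NRF1 letters GCGCATGCG, which overlap their own reverse complement, were in 6 of 32 windows on either strand, or 18.8%, against 1.92%: SDHD, COX6A1, ATP5C1, ATP5G2, ATP5I and ATP5J. The ETS letters CCGGAAGT, read by GABP, were in 7 of 32, or 21.9%, against 4.14%: SDHD, UQCRH, UQCRQ, UQCR11, COX5B, COX8A and ATP5H. The YY1 letters AAGATGGCG were in 3 of 32, or 9.38%, against 1.75%: SDHB, UQCRC1 and ATP5J. The stretches below, all on the plus strand, show in capitals the NRF1 and ETS letters of SDHD at chr11:112086723-112086872, the NRF1 letters of ATP5C1 at chr10:7788077-7788176 and the ETS letters of COX5B at chr2:97645962-97646061. In SDHD the ETS letters lie on the minus strand, so the capitals show their reverse complement, and in SDHD and ATP5C1 the capitals join both readings of the NRF1 letters.
SDHD promoter: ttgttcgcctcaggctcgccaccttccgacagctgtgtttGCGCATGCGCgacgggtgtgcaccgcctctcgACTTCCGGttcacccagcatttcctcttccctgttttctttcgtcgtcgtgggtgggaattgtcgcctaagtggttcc
ATP5C1 promoter: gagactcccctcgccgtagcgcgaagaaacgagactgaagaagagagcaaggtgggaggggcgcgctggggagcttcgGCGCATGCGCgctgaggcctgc
COX5B promoter: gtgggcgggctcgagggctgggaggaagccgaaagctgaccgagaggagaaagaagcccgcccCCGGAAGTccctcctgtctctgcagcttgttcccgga
These are matches of letters, not sites shown to be bound. Genes that share them differed: of the 6 genes with the NRF1 letters, SDHD and ATP5C1 were the lowest in polyribosome RNA (-3.13 and -2.31) and ATP5I was 2-fold higher (1.02). After exchange of the columns SDHD was at -1.14, ATP5J at -0.80, ATP5C1 at -0.78 and ATP5I at 0.11.

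Other genes of mitochondrial respiration, listed by role, gave the surroundings. The 37 complex I subunits, of which all passed the filter, had a median of -0.39 in polyribosome RNA and -0.04 in input, with 3 at least 2-fold higher and 8 lower in polyribosome RNA, where 16.7% and 32.9% of all genes were and the median of all genes was -0.28. With the columns exchanged, the median of all genes in polyribosome RNA was -0.008. Of 13 citric acid cycle enzymes, which feed the chain with electrons, 6 were at least 2-fold lower in polyribosome RNA, and their median was -0.96, or -0.32 with the columns exchanged. Mitochondrial ribosomal proteins, 77 genes, had a median of -0.44 in polyribosome RNA, and cytosolic ribosomal proteins, 82 genes, 0.42, which were -0.21 and -0.04 with the columns exchanged. Among factors that assemble complexes II to V, 34 past the filter, 4 were at least 2-fold higher and 11 lower in polyribosome RNA, the lower share close to that of all genes. ATPAF2, which assembles the head of the ATP synthase, was at 102.07 FPKM in knockdown-labelled polyribosome RNA and 72.46 in input, against 21.80 and 21.90 FPKM in control, higher in both fractions in either column order. SDHAF3, an assembly factor of complex II, was at 2.15 FPKM in knockdown-labelled polyribosome RNA and 14.81 in input, against 13.22 and 12.06 FPKM in control, and its polyribosome difference of -2.17 was 0.15 with the columns exchanged. No set was called different from another, since genes are not replicates of a condition.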

How the data were processed

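Groups came from the sample titles. The authors deposited 1 table of FPKM per gene symbol, and a ratio per gene that is (polyribosome FPKM + 5) over (input FPKM + 5), with a largest gap of 5e-10. TopHat, hg19 and GRCh37 are named in the submitters' processing notes. How fragments were counted, with which annotation and strand setting, is not stated there. Depth is unknown, because the lowest value above 0 is the rounding step of 0.01 FPKM. Hence no interval or floor was computed.

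Differences were taken on log2(FPKM + 1), a scale that understates the change of low genes, over the 7379 genes that averaged 5 FPKM or more. A gene was counted as higher or lower at 2-fold. The median of all genes was -0.28 in polyribosome RNA and -0.12 in the change of polyribosome minus input, and members are read against it. With the columns exchanged these medians were -0.008 and -0.05. Of 7379 genes 7338 (99.4%) had a GENCODE 29 transcript, 1 per gene. Any of the 40 genes could be named, and for other lists the 2 highest and 2 lowest. Members and lists were chosen with earlier results of these data known. The counting and the trend step were tested on simulated data. Alternatives were a pseudocount of 0.1 or 5, a mean of 1 FPKM or no filter, centring, exchanged columns, and GC content and length removed. Removal of coding GC content and length was added after the data were seen. Python 3.11.15, numpy 2.4.6, pandas 2.3.3, scipy 1.17.1 and matplotlib 3.10.9 were used.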

Additional observations from a re-analysis of the deposited data

Results flagged for a closer look

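In 8 messages, polyribosome and input RNA were at least 2-fold apart in knockdown-labelled cells, and polyribosome minus input had the opposite sign in control cells. The difference, knockdown-labelled minus control on the log2(FPKM + 1) scale, was -2.42 for CYCS, -2.41 for SDHD, -2.17 for UQCRC2, -2.01 for ATP5F1, -1.97 for ATP5C1, -1.70 for UQCRB and -1.47 for ATP5O, and 1.57 for UQCR11. With 1 library per group the difference was not tested. The share of all genes that meet the same rule was not computed. With the knockdown-labelled columns exchanged, all 8 had the same sign as in control cells, such as 2.21 and 0.22 for CYCS. In the authors' deposited table, the ratio of polyribosome to input was 0.290 for SDHD in knockdown-labelled cells and 1.33 in control cells, 0.268 and 1.15 for CYCS, and 2.33 and 0.815 for UQCR11.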

How the results depend on the processing

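A pseudocount of 0.1 or 5 FPKM and a filter of 1 FPKM on the mean, or no filter, moved none of the 200 values of the 40 genes by 1.5-fold, and no count of members by more than that. Centring on the median of all genes gave 4 members higher in the change of polyribosome minus input (2 uncentred) and 1 lower in input (0 uncentred).

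With the knockdown-labelled columns exchanged, members 2-fold higher and lower numbered 0 and 2 in polyribosome RNA (2 and 8 by the header), 1 and 5 in input (2 and 0), 7 and 1 in knockdown-labelled polyribosome minus input (1 and 7) and 5 and 1 in its change (2 and 10). In knockdown-labelled polyribosome minus input the exchange swaps the shares of all genes, to 28.8% higher and 8.62% lower. For the other exchanged counts, shares of all genes were not computed. The change then was 1.57 for SDHD, 1.11 for UQCRC2, 0.69 for UQCRB, -0.96 for UQCR11, 1.99 for CYCS, 0.46 for ATP5A1, 1.11 for ATP5C1, 1.43 for ATP5F1, 0.27 for ATP5H, -0.81 for ATP5I, 0.53 for ATP5O and -0.16 for COX7B. Knockdown-labelled polyribosome minus input became 1.99 for SDHD, 1.64 for UQCRC2, 1.19 for UQCRB, -1.26 for UQCR11, 2.21 for CYCS, 1.54 for ATP5C1, 1.72 for ATP5F1 and 1.00 for ATP5O, and the polyribosome difference of CYCS 0.26. The exchange itself sets these signs.

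With transcript GC content and length removed, 5 members were higher and 1 lower in knockdown-labelled polyribosome minus input, 5 were higher in its change, 1 was lower in input and 5 were lower in polyribosome RNA. Shares of all genes past 2-fold were not computed after either removal of GC content and length. UQCRB reversed to 0.84 in knockdown-labelled polyribosome minus input and 0.14 in the change, and ATP5I to -0.39 in the change. ATP5D moved to -1.05 in the change (0.90 before) and -0.99 in polyribosome RNA (0.57 before), and ATP5E to 1.81 in the change (0.03 before). With coding GC content and length removed, an alternative chosen after seeing the data, 0 members were higher and 2 lower in knockdown-labelled polyribosome minus input, 0 were higher in its change, 1 was higher in input and 0 were higher in polyribosome RNA. UQCR11 reversed to -0.16 in knockdown-labelled polyribosome minus input and -0.20 in the change, and ATP5I to -0.077 in the change. ATP5D was then at -0.52 and ATP5E at -0.47 in the change. The cause of these reversals was not tested. No paired analysis was possible because each group has 1 library. Leaving out a library would leave its group empty, so none was left out.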

Other observations

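Other genes of mitochondrial energy supply differed too, and some of them, though not all named here, by more than any of the 40. SLC25A4, the ADP/ATP carrier of muscle and heart, was at 9.40 FPKM in knockdown-labelled polyribosome RNA and 11.46 in input, against 0.02 and 0.06 FPKM in control, and it was higher in both fractions in either column order. SLC25A5, the main carrier of dividing cells, was at 441.56 and 546.89 FPKM against 822.58 and 623.74 FPKM. Of 10 regulators of mitochondrial biogenesis 7 passed the filter. TFAM, which packages and transcribes mitochondrial DNA, was at 0.69 and 10.23 FPKM in knockdown-labelled polyribosome and input RNA, against 6.80 and 8 FPKM in control. TFB2M, a transcription factor of the same genome, was at 2.17 and 20.70 FPKM against 29.02 and 24.11 FPKM. ESRRA, a nuclear receptor of respiratory genes, was at 75.64 and 30.21 FPKM against 36.36 and 41.21 FPKM. The low polyribosome values of TFAM and TFB2M stand in input when the knockdown-labelled columns are exchanged, and the polyribosome difference of ESRRA turns to -0.26. COA1, an assembly factor of complex IV, was lower in both fractions in either column order, at 99.33 and 50.59 FPKM against 139.03 and 209.71 FPKM.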
